A study of Mus musculus with 6 samples.

Results

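The cytosolic ribosomal proteins are the protein components of the ribosomes that translate nuclear-encoded messages. They were taken as all genes of the array's annotation whose symbol is Rpl or Rps followed by a digit, or Rplp0, Rplp1, Rplp2 or Rpsa, and only probe sets listed under 1 gene symbol were used. S6 kinases, pseudogenes, genes named as ribosomal protein-like and Rps19bp1, which encodes a protein that binds RPS19, were left out. This gave 43 of the 18193 genes measured, 21 of the small subunit and 22 of the large subunit, read by 95 probe sets. A further 110 probe sets are listed under several symbols of which at least 1 is a ribosomal protein gene, and they were kept apart. Rplp1, Rpl5, Rpl10 and Rps27a had no probe set with a single symbol and are not analysed here.

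The samples were endothelial cells recovered from plugs of Matrigel, a basement membrane gel, implanted intraperitoneally in Balb/c nude mice, an immunodeficient strain. Plugs of the MFAP5 group held recombinant microfibrillar-associated protein 5, a secreted glycoprotein of elastic microfibrils, and plugs of the control group did not, with 3 samples in each of the 2 groups and 1 Affymetrix whole-genome mouse array per sample. The submitters call the samples independent; the sources used here give neither the age of the mice, the dose of the protein, the animals behind each sample nor the way of separating endothelial cells, so it cannot be said whether the spread between samples is a spread between animals. Values are log2 signals (base 2 taken from their range) centred on the median of each probe set over the 6 arrays. A value of 0 is therefore the middle of the 6 arrays for that probe set, and the mean of several probe sets of a gene can have its middle slightly off 0. Neither absolute levels nor levels of different genes can be compared.

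Most ribosomal proteins are made in equal numbers for each ribosome, and ribosomal protein messages are among the most abundant of a growing cell. Most of these messages begin with a terminal oligopyrimidine tract, an unbroken stretch of C and T at the 5′ end, through which mTOR and the RNA-binding protein LARP1 adjust translation of the whole set together, so that much of its control lies in translation and not in the amount of message. Their transcription responds to growth signals such as MYC. An array measures the amount of message and gives no reading of that translational step.

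The tract was looked for at the annotated starts of the members, and it is shown here for a few on which the results turn. RefSeq starts (GRCm38.p6) were used for 38 of the 43 genes. Member starts on a single chromosome were left out, while the comparison genes below kept all chromosomes. In a window of 30 bases, from 10 before the annotated start to 20 from the start on, an unbroken run of at least 8 C or T on the strand of the gene was found in 16 of these 38 genes (42.1%) and not in the other 22, against 13.0% of 27025 genes in the same table and 6 of 67 mitochondrial ribosomal protein genes (8.96%). By single starts the shares were 36.4% of 44 and 11.2% of 32851. A RefSeq start can lie some bases away from the start used in these cells. Capitals mark the longest run of C and T in each window, at chr7:109519185-109519214 (plus strand) for Rpl27a, chr2:39005112-39005141 (minus) for Rpl35, chr7:45128726-45128755 (minus) for Rpl13a, chr4:86857348-86857377 (minus) for Rps6, chr7:141447641-141447670 (plus) for Rplp2 and chr3:90213629-90213658 (minus) for Rps27. Rps3, at chr7:99483690-99483719 (minus), is given as a member whose annotated start holds no such run.
Rpl27a: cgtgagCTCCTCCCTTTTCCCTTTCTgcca
Rpl35: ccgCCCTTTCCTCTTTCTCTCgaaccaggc
Rpl13a: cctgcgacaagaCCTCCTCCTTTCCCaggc
Rps6: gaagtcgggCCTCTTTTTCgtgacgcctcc
Rplp2: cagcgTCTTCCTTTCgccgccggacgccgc
Rps27: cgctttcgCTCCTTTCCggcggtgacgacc
Rps3: aagggTCgccgcgctgcgcggcgtcattgc

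No ribosomal protein gene passed the test between the groups. Of the 43 members 0 were higher and 0 lower with MFAP5 (limma, Benjamini-Hochberg adjusted p under 0.05 over all genes), where 0.759% of all genes were called higher and 2.79% lower, and 2 members had an unadjusted p under 0.05, where 19.7% of all genes did. The lowest limma adjusted p of a member was 0.150. Differences were above 0 in 20 members and below 0 in 23, with a median log2 difference of -0.0096 against -0.079 over all genes. The median was -0.019 for the small subunit and 0.011 for the large subunit. In 39 of the 43 members (90.7%) the difference was smaller than 0.2 in either direction, as it was in 62.1% of all genes. The share was 81.2% in 16 elongation factors and other tract messages, 79.1% in 67 ribosome biogenesis genes and 76.5% in 34 initiation factors. These lists overlap. Eif3e, Eif3f, Eif3h and Eif4b are listed under both tract messages and initiation factors, and Npm1 under both tract messages and biogenesis. The share below 0.2 was 32.9% in 76 mitochondrial ribosomal protein genes and 42.9% in 7 paralogs and fusion genes. The median standard error was 0.099 in the members and 0.12 over all genes. All standard errors of differences given here are limma's moderated ones. In these the variance of each gene is drawn towards a value estimated from all genes.

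The missing calls do not show that the messages were equal. The intervals give how large a change in a gene's averaged probe sets these arrays leave possible, under limma's moderated errors. The 95% interval of the limma difference lay inside a 2-fold change in either direction in 42 of the 43 members (97.7%, and 94.7% of all genes). Apart from Rpl27a and Rps27, the other 41 members had differences between -0.27 and 0.14, and the widest of their intervals reached -0.55 on the low side and 0.41 on the high side. Intervals of single probe sets of these genes reached further. They ran from -0.047 to 1.09 in a probe set of Rps20 and from -1.08 to 0.072 in a probe set of Rps10. Standard errors of the 43 gene differences ran from 0.089 to 0.26.

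**Figure D1:**
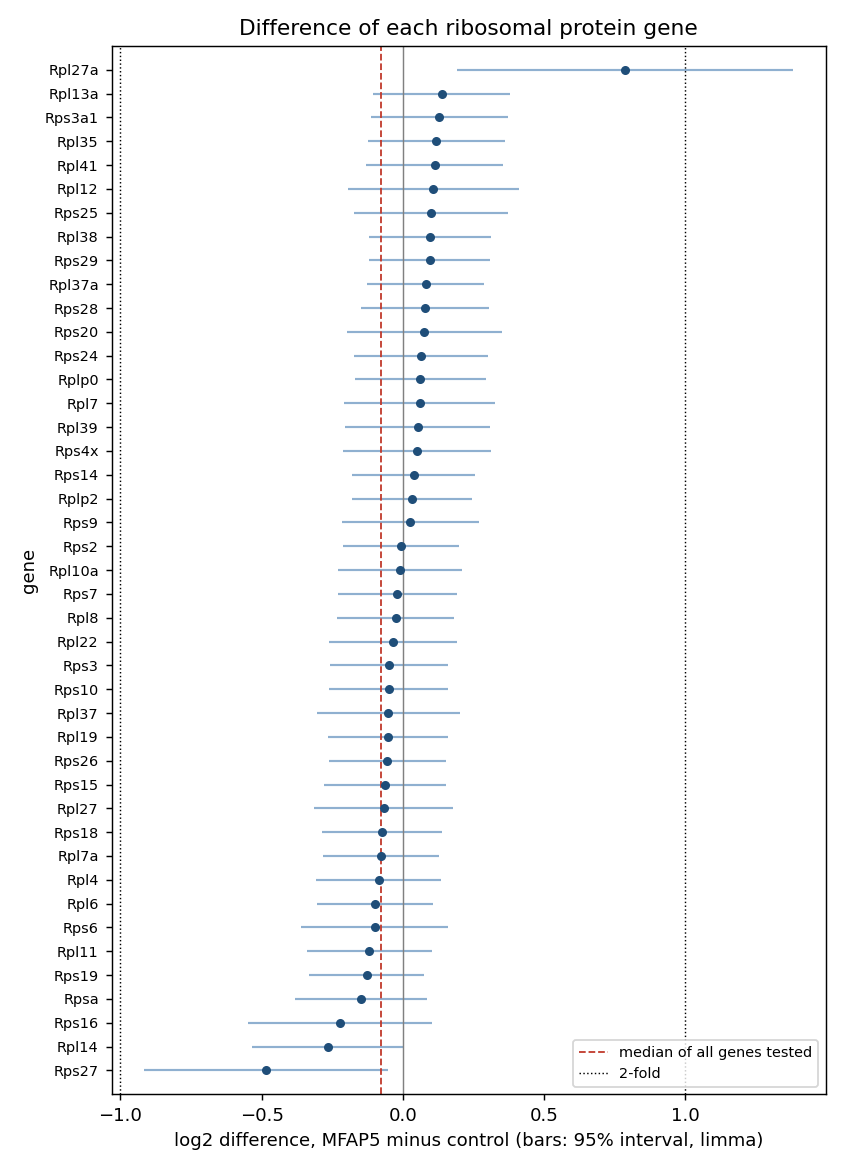
Log2 difference (horizontal axis, MFAP5 minus control) of each of the 43 ribosomal protein genes (vertical axis), with points for the limma difference and bars for its 95% interval; dotted lines mark a 2-fold change and the dashed line the median of all genes, -0.079. The intervals of 41 genes include 0, and those of Rpl27a and Rps27 do not, although neither gene passed the threshold after adjustment.

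By array, the median of the 43 members was 0.046, -0.018 and -0.010 in controls 1, 2 and 3 and -0.0029, 0.0022 and -0.022 in MFAP5 replicates 1, 2 and 3. The medians of the groups overlapped. The SD across the members was 0.066, 0.076 and 0.088 in the MFAP5 arrays, where that of all genes was 0.26, 0.27 and 0.21. In control replicate 1 it was 0.085 against 0.19 over all genes. In controls 2 and 3 it was 0.23 and 0.21, close to the 0.26 and 0.25 of all genes, and without Rpl27a and Rps27 it was 0.13 and 0.079. Several probe sets were averaged in 51.2% of the members and in 49.5% of all genes. Control replicate 1 stood apart from the other controls: 30 members were higher there than in both other controls and 10 were lower, and the median of its difference from the mean of controls 2 and 3 was 0.066 in the members and -0.10 over all genes. Across all genes, which are not independent, its values correlated at 0.046 and 0.10 with controls 2 and 3, which correlated with each other at 0.70.

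**Figure D2:**
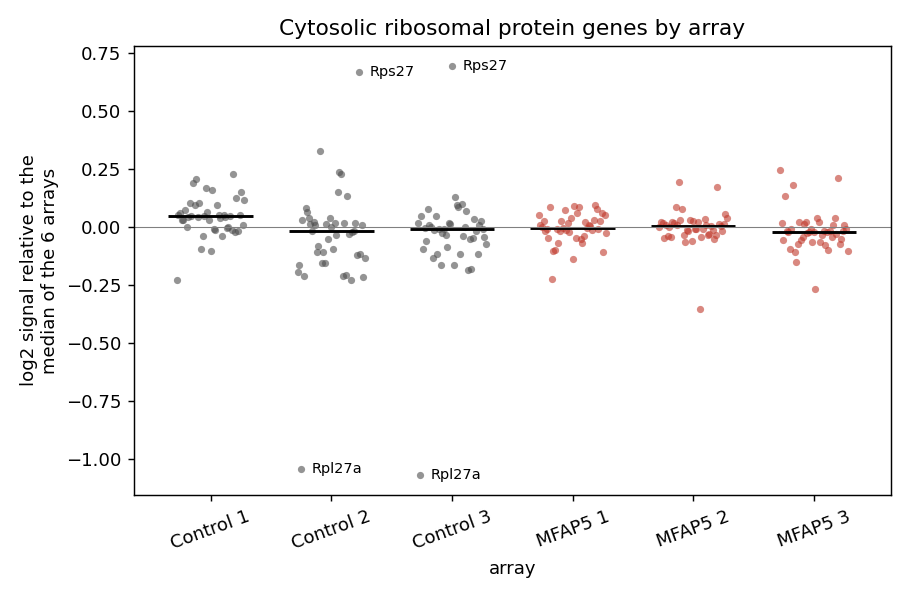
Relative log2 signal (vertical axis) of the 43 ribosomal protein genes in each of the 6 arrays (horizontal axis); every point is a gene and the black bars are array medians. The points crowd around 0 in all arrays, and Rpl27a at -1.04 and -1.07 and Rps27 at 0.67 and 0.69 stand apart in controls 2 and 3.

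The 2 members with the smallest p, Rpl27a of the large subunit and Rps27 of the small subunit, moved in opposite directions, and in each the difference came from the same pair of control arrays. Rpl27a stood at -0.013, -1.04 and -1.07 in controls 1, 2 and 3 and at 0.071, -0.045 and 0.21 in the MFAP5 arrays. Controls 2 and 3 were far below the rest, and control 1 lay within the MFAP5 range. Its log2 difference was 0.79 ± 0.26 (limma moderated SE, n = 3 per group, 1.73-fold, limma adjusted p = 0.150). Rps27, which encodes a zinc-finger protein of the small subunit also called metallopanstimulin, stood at -0.037, 0.67 and 0.69 in the control arrays and at -0.10, -0.067 and 0.037 with MFAP5. Here controls 2 and 3 were above all other arrays and control 1 again fell among the MFAP5 values. Its difference was -0.48 ± 0.19 (1.40-fold lower; limma adjusted p = 0.211).

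Both genes passed the threshold in 2 other settings, without control replicate 1 and with array weights. Without control replicate 1 limma called Rpl27a higher, at 1.13 (adjusted p = 0.0044), and Rps27 lower, at -0.72 (adjusted p = 0.0083), and these were the sole calls among the members, in a setting that called 4.18% of all genes higher and 10.5% lower. Array weights estimated from the data, with all 6 arrays kept, called the same pair, at 1.06 and -0.68 (adjusted p = 0.0053 and 0.0094), with 6.18% and 15.8% of all genes called. Without control 2 or 3 the differences were 0.62 and 0.61 for Rpl27a and -0.37 and -0.36 for Rps27. The spike-in controls, which are bacterial RNAs that monitor the hybridization step, averaged -0.32, 0.64 and 0.65 in controls 1, 2 and 3 and of -0.038, -0.0078 and -0.0065 in the MFAP5 arrays. With that level as a covariate the differences were 0.42 for Rpl27a and -0.23 for Rps27 (limma adjusted p = 0.13 and 0.299), and 0 members were called, where 0.264% of all genes were called higher and 1.74% lower.

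The Rpl27a difference rested on 1 of its 2 probe sets. That probe set was at -0.12, -2.11 and -2.11 in the control arrays and at 0.21, 0.12 and 0.21 with MFAP5, a difference of 1.62 ± 0.47 (limma adjusted p = 0.113 over all probe sets). In controls 2 and 3 it had the lowest relative value of all 45037 probe sets tested. The other Rpl27a probe set was at 0.090, 0.022 and -0.022 in the control arrays and -0.067, -0.21 and 0.21 with MFAP5, and its groups overlapped at a difference of -0.051. The low probe set was the sole member probe set that limma called with the spike-in covariate, at 0.92 ± 0.11 (adjusted p = 0.0135). That setting called 0.786% of all probe sets higher and 1.1% lower. Within the groups the spike-in level varied almost only between control 1 and controls 2 and 3. The covariate fit, and this call, therefore depend largely on control 1.

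The next members by p were Rpl14 and Rps16. Rpl14, of the large subunit, stood at 0.10, 0.33 and 0.018 in the control arrays and -0.23, -0.018 and -0.10 with MFAP5, and the groups did not overlap. Its difference was -0.27 ± 0.12 (95% interval -0.53 to 0.0021; limma adjusted p = 0.257). Rps16, of the small subunit, stood at -0.096, 0.23 and 0.13 and at 0.096, -0.35 and -0.15, with overlapping groups and a difference of -0.22 ± 0.14, which was -0.115 without MFAP5 replicate 2 and -0.34 without MFAP5 replicate 1.

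Other small subunit members were named for a known role, within or outside the ribosome, or for the size of their difference or p. Rpsa, which is also described as a receptor for laminin, a main component of the gel, had values of -0.012, 0.23 and 0.098 without MFAP5 and -0.047, -0.013 and -0.064 with MFAP5. The groups were apart by the third decimal place, and the difference was -0.15 ± 0.10. In each Rpsa probe set taken alone the groups overlapped, so the gap is one of their mean only. Rps6, the substrate of the S6 kinases downstream of mTOR, had values of 0.095, -0.017 and -0.00088 and of 0.030, 0.017 and -0.27. MFAP5 replicate 3 was the lowest array and the other 5 overlapped, at a difference of -0.099 (95% interval -0.36 to 0.16) that was -0.00233 without that array. Rps3, which also has a part in DNA repair, stood at 0.051, -0.023 and 0.046 in the control arrays and -0.0029, -0.049 and -0.023 with MFAP5, with overlap and a difference of -0.050. Rps19, the gene first found mutated in Diamond-Blackfan anaemia, had values of 0.049, 0.081 and 0.093 in the controls against -0.049, -0.053 and -0.059 with MFAP5. The groups did not overlap, the difference was -0.13 ± 0.090, and the limma adjusted p was 0.460. The SD of Rps19 was 0.023 in the controls and 0.0047 with MFAP5, small beside that moderated error. For Rps19 the unmoderated statistic, which uses each gene's own variance, gave an adjusted p of 0.0921. Rps3a1 stood at 0.048, -0.21 and -0.16 in the control arrays and 0.061, 0.022 and -0.022 with MFAP5, with overlap and a difference of 0.13.

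In the large subunit, Rplp0 and Rplp2, parts of the acidic stalk that recruits elongation factors, had differences of 0.063 (95% interval -0.17 to 0.29) and 0.031 (-0.18 to 0.24). Without control replicate 2 these were 0.00641 and 0.000923. Rplp0, often used as a reference gene, stood at 0.072, -0.16 and -0.049 in the control arrays and 0.053, 0.011 and -0.011 with MFAP5, and the groups overlapped. Rplp2 stood at 0.042, -0.082 and -0.026 and at -0.015, 0.027 and 0.015, also with overlap. Rpl11, which can bind and inhibit the p53 ligase MDM2 when ribosome assembly is disturbed, stood at 0.15, 0.011 and 0.0084 and at -0.069, -0.0084 and -0.11. Its groups were apart by a small margin, with a difference of -0.12 ± 0.097. Rpl13a, which can leave the ribosome to repress translation of inflammatory messages, had values of 0.043, -0.21 and -0.12 and of 0.087, 0.078 and -0.035, which overlapped, and a difference of 0.14 ± 0.11.
Rpl35, at the exit of the peptide tunnel, had values of 0.049, -0.21 and -0.18 and of 0.015, 0.010 and -0.018 and a difference of 0.12. Controls 2 and 3 were again the lowest arrays for Rpl13a, Rpl35 and Rps3a1. Rpl22 stood at 0.062, -0.034 and 0.027 and at 0.085, -0.032 and -0.11, with overlapping groups and a difference of -0.036. Without control replicate 2 the differences were -0.177 for Rpl14, -0.0845 for Rpsa, 0.081 for Rpl13a, 0.0702 for Rpl35 and 0.0774 for Rps3a1, and without control replicate 1 that of Rpl11 was -0.0716. The signs of Rplp2, Rps3, Rpl22 and Rpl35 each turned under at least 1 other setting. Rpl38, known for its effect on the translation of Hox messages, had values of -0.00065, -0.13 and -0.14 without MFAP5 and 0.00065, 0.010 and 0.0072 with MFAP5, which were apart, at a difference of 0.096. The other 27 members had differences from -0.098 (Rpl6) to 0.11 (Rpl41), 13 above 0 and 14 below, with limma adjusted p between 0.570 and 0.975 and values between -0.23 and 0.25 in single arrays.

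The groups did not overlap in 9 members. Rpl37a and Rpl38 were higher with MFAP5 (2 of 43, 4.65%, where 6.51% of all genes did the same), and Rpl14, Rpsa, Rps19, Rpl11, Rpl6, Rpl7a and Rps26 were lower (7 of 43, 16.3%, against 17.8% of all genes). Both shares were near the background. The differences of these 9 genes, named after their values were seen, lay between -0.27 and 0.096.

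Ribosomal protein genes have many processed pseudogenes, and the array's design marks probe sets whose probes match other transcripts too with the ending _x_at. Of the 95 member probe sets 38 carried it. None of the 95 passed limma (704 and 774 of 45037 probe sets, 1.56% and 1.72%, were higher and lower), and 6 had an unadjusted p under 0.05 (18.7% of all probe sets did). The 38 had a median difference of 0.061, with 25 above 0 and 13 below, and array medians of 0.035, -0.090 and -0.058 without MFAP5 and 0.045, 0.0063 and -0.0064 with MFAP5. The 28 member probe sets ending in plain _at had a median difference of -0.077, with 10 above 0 and 18 below, and array medians of 0.026, 0.050 and 0.028 and of -0.040, -0.00088 and -0.035. Over the array the medians were -0.013 for 2441 _x_at and -0.054 for 36082 plain probe sets. The signs of the members' 2 medians thus differed by kind of probe set. The 110 probe sets listed under several symbols had a median difference of 0.019, and limma called 0 of them, with 2 at an unadjusted p under 0.05.

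Probe sets of a single gene often disagreed. Of the 22 members with several probe sets, 17 had differences of both signs, and the range within a gene had a median of 0.21 and exceeded 0.5 in 6 genes. These counts were made for the members only, so they do not show a trait particular to them. In Rps20 a plain probe set stood at 0.13, 0.40 and 0.065 in the control arrays and -0.065, -0.20 and -0.14 with MFAP5, a difference of -0.33. An _x_at probe set of Rps20 stood at 0.18, -0.84 and -0.73 and at 0.19, 0.061 and -0.061, a difference of 0.52. Control replicates 2 and 3 were the lowest arrays of the second, while control 2 was the highest of the first. In Rps24, a gene with alternative 3′ exons, the differences of 6 probe sets ran from -0.29 to 0.44, in Rps10 those of 6 ran from -0.50 to 0.14, in Rpl35 those of 6 from -0.23 to 0.33, and in Rpl13a those of 4 from -0.092 to 0.45. Without control replicate 1 limma called 4 member probe sets higher, 1 each of Rpl27a, Rpl13a, Rps20 and Rpl35, and 1 lower, that of Rps27 (6.26% and 7.48% of all probe sets were called), and array weights gave 3 and 1 (6.76% and 8.49%).

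**Figure D3:**
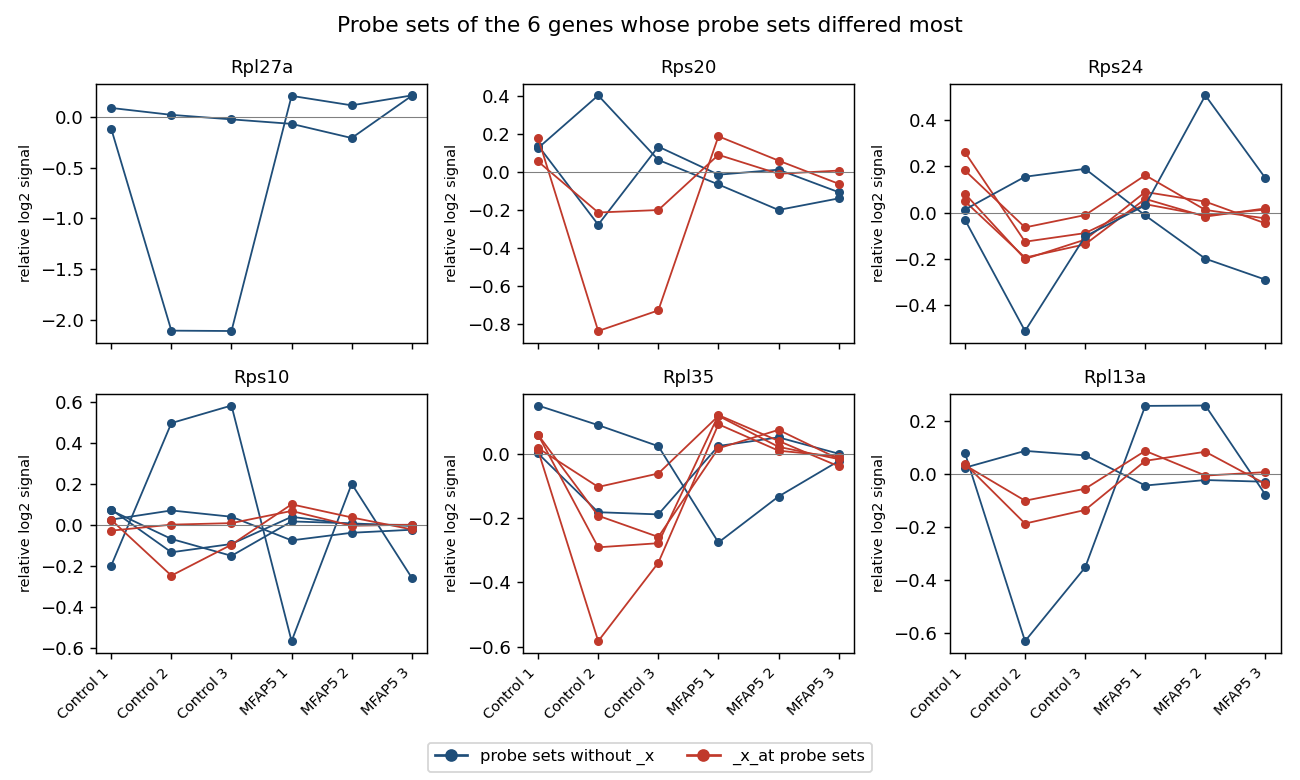
Relative log2 signal (vertical axes, scaled separately) of every probe set of the 6 members whose probe sets differed most, across the 6 arrays (horizontal axes); a line joins the values of 1 probe set, red for _x_at probe sets and blue for others. In Rpl27a 1 probe set falls to -2.11 in controls 2 and 3 while the other stays near 0, and in Rps20 the probe sets part in the same 2 arrays.

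Mitochondrial ribosomal proteins, which build the separate ribosome that translates the messages of the mitochondrial genome, gave other values by the same fit. Of 76 genes 73 had a difference below 0, with a median of -0.31, where 23 of the 43 cytosolic members and 11936 of all 18193 genes were below 0. Limma called 7 of the 76 lower and 0 higher (2.79% and 0.759% of all genes). The groups did not overlap in 52 of the 76 in the lower direction and 1 in the higher, where 17.8% and 6.51% of all genes did the same. Mrps22 stood at 0.37, 0.38 and 0.35 in the control arrays and -0.81, -0.41 and -0.35 with MFAP5 (difference -0.89 ± 0.13, limma adjusted p = 0.0096), and Mrpl12 at 0.20, 0.41 and 0.49 and -0.49, -0.29 and -0.20 (difference -0.69). No test of the difference between the 2 groups of genes was made.

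**Figure D4:**
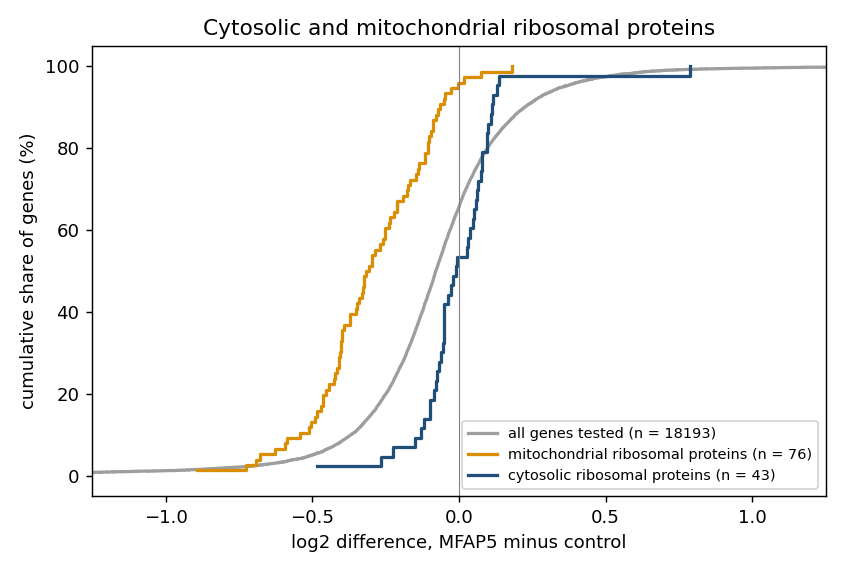
Cumulative share of genes (vertical axis, percent) against the log2 difference (horizontal axis, MFAP5 minus control) for 43 cytosolic ribosomal protein genes, 76 mitochondrial ribosomal protein genes and all 18193 genes (a few genes of the last lie beyond the limits of the axis). The cytosolic curve rises steeply around its median of -0.0096, and the mitochondrial curve lies to the left with a median of -0.31.

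Other genes of the translation machinery were set beside the members by the same fit. Of 16 measured elongation factors and other messages with a terminal oligopyrimidine tract limma called none, with a median of 0.019. Pabpc1, the poly(A)-binding protein, had the smallest p there, at -0.057, -0.53 and -0.29 in the control arrays and 0.29, 0.13 and 0.57 with MFAP5. These groups did not overlap, and the difference was 0.62 ± 0.16 (limma adjusted p = 0.071). Of 34 initiation factors none passed, with a median of -0.028. Eif2b1, a subunit of the exchange factor of eIF2, was at -0.69 ± 0.16 and Eif4a2, an RNA helicase of the cap-binding complex, at 0.73 ± 0.20 (limma adjusted p = 0.0525 and 0.0918).

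Of 67 genes of ribosome biogenesis none passed, with a median of -0.065 (all genes -0.079) and 48 differences below 0, a share near that of all genes (11936 of 18193). Wdr75, a factor of the small subunit processome, was at 0.37 ± 0.097 and Nop14, of the same particle, at -0.49 ± 0.16 (limma adjusted p = 0.077 and 0.149). Of 27 measured genes listed under growth control limma called 1 higher and 0 lower, where 0.759% and 2.79% of all genes were called. The gene was Rictor, the defining subunit of the mTOR complex 2, and a link to the members was not tested. It stood at -0.29, -0.31 and -0.33 in the control arrays and 0.046, 0.23 and 0.27 with MFAP5 (difference 0.49 ± 0.10, limma adjusted p = 0.038). Myc had values of -0.050, -0.28 and -0.068 and of 0.31, 0.050 and 0.55, which did not overlap, with a difference of 0.44 ± 0.14 and a limma adjusted p of 0.149. Eif4ebp1, the translation repressor that mTOR phosphorylates, was at -0.35 ± 0.12 (limma adjusted p = 0.153). Tsc1, next in the list by p, was at 0.24 ± 0.096 (limma adjusted p = 0.221). The whole list had a median of -0.059, with 12 differences above 0 and 15 below.

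Other features of the arrays differed between the groups while the members' medians did not part. Of 10 measured adipocyte markers limma called 9 lower with MFAP5, with medians by array of 1.16, 1.35 and 1.26 without MFAP5 and -4.12, -2.64 and -0.96 with MFAP5. Of 9 neutrophil markers 3 were lower, of 6 muscle markers 1, and of 8 fibroblast markers 1 (Pi16, -0.93), while the other 7, which did not pass, had differences above 0 and the list a median of 0.27. None of 14 endothelial, 10 macrophage, 6 B cell, 6 T and NK cell, 6 mesothelial or 2 red cell markers passed. The endothelial median was -0.18, and centring leaves no level by which the presence of these markers could be judged. The 3′ to 5′ ratio of beta-actin control probe sets was higher in all MFAP5 arrays, by 0.12 (exact permutation test, two-sided, p = 0.1, the smallest that 3 against 3 arrays allow), and that of Gapdh overlapped between the groups. In these bulk samples fewer cells of a type and less RNA per cell cannot be told apart, and the part of cell mixture and RNA quality in the values of the members was not tested.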

How the data were processed

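Biotinylated cRNA from total RNA was hybridized to 1-colour arrays, per the labels' protocols. MAS5 is named in the submitters' processing notes; no source used here gives the scaling or the log base. The log2 values were deposited in centred form: the 6 arrays of each probe set have a median of 0 (largest departure 5e-07). No filter on dim probe sets could therefore be applied. After leaving out 64 control probe sets of 45101, 45037 were tested; 34945 had 1 symbol in the platform annotation, 932 several and 9160 were not listed. Symbols were updated through RefSeq (GRCm38.p6; 34754 matched). Probe sets of a gene were averaged. Groups were compared over all genes with limma (3.58.1, under R 4.3.3, with lmFit, eBayes, two-sided, Benjamini-Hochberg, threshold 0.05). The procedure was tested on simulated data with independent noise and differences larger than those of most members. That run does not show whether differences as small as theirs could be called. Array controls were compared by exact permutation (scipy version 1.17.1).

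The members and lists were chosen with earlier results of these data known. Values per array are given for the 8 members with the smallest p, the 4 with the largest difference in each direction and 14 members fixed by role, of which 10 were measured. For each other list at most 4 genes with the smallest p were open to naming. Alternatives were quantile normalization, median centring, a variance trend, array weights, a replicate block, the spike-in covariate, each sample left out, an unmoderated statistic, other summaries of probe sets, leaving out _x_at and _s_at probe sets, and including Rps19bp1.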

Additional observations from a re-analysis of the deposited data

How the results depend on the processing

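The counts of 0 member genes higher and 0 lower held in limma with quantile normalization, median centring, a variance trend, other summaries of probe sets, without _x_at probe sets and with Rps19bp1. In these settings 0.621% to 1.23% of all genes were called higher and 2.65% to 3.3% lower. A count of 0 among 43 members is close to such shares. The unmoderated statistic called 0 genes higher and 1 lower of all 18193, so its count of 0 members says nothing about them. Array weights gave 1 gene higher and 1 lower, and 3 probe sets higher and 1 lower; the spike-in covariate gave 1 probe set higher. Leaving out each sample gave 0 to 1 genes higher, 0 to 1 lower, 0 to 4 probe sets higher and 0 to 1 lower. Every count above 0 came without control replicate 1, where 4.18% of all genes were called higher and 10.5% lower. Without control 2 these shares were 0.0879% and 1.26%, and without control 3 they were 0.077% and 1.13%. The median difference of the members was 0.0248 with median centring, -0.0391 with the spike-in covariate, 0.0282 with the probe set of largest SD, -0.0386 without _x_at and -0.0455 without _x_at and _s_at probe sets, and -0.0285 to 0.00978 with samples left out; its sign is therefore not settled. Of 270 pairs of a named gene and an alternative 5 changed sign: Rplp2 with the spike-in covariate (-0.00215), Rps3 with the probe set of largest SD (0.0282), Rpl35 without _x_at probe sets, with or without _s_at (-0.0415 in both), and Rpl22 without MFAP5 replicate 3 (0.00824, in a range from -0.0869). The causes were not tested. With the replicate number as a block 0 member genes were higher and 0 lower, where 0.841% and 3.24% of all genes were called. The median of the members was -0.00957 there. Deviations of same-numbered samples correlated at 0.18, 0.056 and 0.072. Controls 1 and 3 correlated best with their own number, and control 2 nearly equally with MFAP5 replicates 2 and 3 (0.056 and 0.058). These values do not settle whether the numbers mark pairs. The main fit used no pairs because the submitters call the samples independent.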

Other observations

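Relatives of the ribosomal protein genes were left out by the symbol rule. Of 7 measured paralogs and fusion genes limma called none, with a median absolute log2 difference of 0.25 against 0.076 in the 43 members and 0.15 over all genes. Their median SE was also larger, 0.154 against 0.0989 in the members, and no test of the difference was made. Rpl39l, a paralog of Rpl39 known from testis, stood at -0.034, -0.39 and -0.32 in the control arrays and 0.034, 0.087 and 0.52 with MFAP5. Its groups did not overlap, at a difference of 0.46 ± 0.16 (limma adjusted p = 0.159), while Rpl39 itself was at 0.053. Rpl7l1, which acts in ribosome assembly, stood at 0.041, 0.33 and 0.11 and at -0.081, -0.54 and -0.048, a difference of -0.38 ± 0.15. Rps19bp1 was at -0.30 ± 0.13 (limma adjusted p = 0.268).

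The array also carries 3 control probe sets for 18S ribosomal RNA, the RNA of the small subunit. Their mean was 0.60, -0.13 and 0.12 in controls 1, 2 and 3 and 0.30, -0.20 and -0.18 in the MFAP5 arrays. Control replicate 1 and MFAP5 replicate 1 were the highest arrays of their groups, and the groups overlapped (difference -0.23, exact permutation test, two-sided, p = 0.5).

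The 16 members with a run of at least 8 C or T at the annotated start had a median difference of -0.012, and the 22 without had -0.027.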
